A study of Mus musculus with 6 samples.

Results

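The genes described here are 10 transcription factors of epithelial-to-mesenchymal transition (EMT) and of mesenchyme: the Snail family members Snai1 and Snai2, the Twist factors Twist1 and Twist2, the Zeb repressors Zeb1 and Zeb2, and the homeobox genes Prrx1, Prrx2, Msx1 and Msx2. Their RNA was measured in cells of 4-day mouse embryoid bodies, grown from embryonic stem (ES) cells and sorted for Flk1, the VEGF receptor that marks early mesoderm. The 10 members are among 18193 genes with a probe set of their own; all probe sets annotated with a single one of these symbols were taken, which gave 25 of the 45037 probe sets that were not controls. No probe set named a member together with another gene.

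The study asked which genes depend on Scl (gene Tal1), a basic helix-loop-helix factor that the blood lineage needs, and hybridised total RNA to 6 Affymetrix arrays, 2 for each of 3 groups. The SclKO group was Flk1+ cells of an ES line without functional Scl, derived from the J1 line of strain 129S4/SvJae and sorted on Flk1 alone. The WT Scl+ group was Flk1+ cells that carried human CD4 on the surface, and the WT Scl- group was Flk1+ cells without it; both came from 1 reporter line, made from R1 ES cells of (129/Sv x 129/Sv-CP)F1 origin, in which human CD4 is knocked into the Scl locus. In any comparison with SclKO the knockout, the parental line with its strain, and the gate used for sorting cannot be told apart.

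In EMT, epithelial cells lose their cadherin junctions and become motile, and gastrulation uses this step to release mesoderm from the primitive streak. Snail, Zeb and Twist proteins are the classical drivers: Snail and Zeb proteins are zinc finger repressors that bind E-boxes in epithelial genes such as Cdh1, while Twist proteins are basic helix-loop-helix factors that, like Scl, pair with E proteins. Snai1 is needed for mouse mesoderm to down-regulate Cdh1. Msx and Prrx genes are homeobox genes of lateral plate, limb and craniofacial mesenchyme, and Msx genes are known targets of BMP signalling.

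Levels are natural logs of the deposited values, and differences are given in log units. The base to which the authors raised their values is not stated, so 1 log unit is 2-fold if the natural log is an RMA log2 value and 2.72-fold if the values are linear; folds are given in that order. Values under the 40th percentile of their array (4.54 to 4.59) were treated as dim. Tests are limma's on 28362 probe sets above that limit on at least 2 arrays, adjusted over all of them by the Benjamini-Hochberg method. The labels do not tell whether the 2 arrays of a group were separate differentiations, so p-values measure the spread between these arrays only. WT Scl+ replicate 2 stood apart, with a first principal component score of -78.4 against -11.5 to 38.1 on the other arrays, and it correlated with the others at r = 0.937 to 0.964 across probe sets, which are not independent replicates. All other pairs of arrays had r = 0.9725 to 0.9858. The array nearest to WT Scl+ replicate 1 was WT Scl- replicate 2 (r = 0.9836), while the WT Scl- arrays had r = 0.9821 with each other. The WT arrays thus did not group by Scl label in these correlations. Tal1 was at 5.71 and 6.14 in SclKO, 8.65 and 8.78 in WT Scl+, and 6.52 and 7.97 in WT Scl-. Kdr, which encodes Flk1, differed by at most 0.18 log units between any 2 groups.

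Of the 10 genes, 9 had a tested probe set. Prrx1, a factor of limb and craniofacial mesenchyme, had none: its 6 probe sets stayed under the limit on every array, and its highest value on any array was 4.5. Of the 25 probe sets, 16 were tested, 13 exceeded the limit on every array and 9 on none. Just inside the limit were a Zeb1 and a Zeb2 probe set (1443005_at and 1458941_at), each above it on 1 SclKO and 1 WT Scl+ array. Just outside were the Prrx1 probe set 1425526_a_at and the Zeb2 probe set 1454200_at, at up to 4.5 and 4.21. In what follows a gene is represented by the probe set with its highest mean unless another is named.

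**Figure D1:**
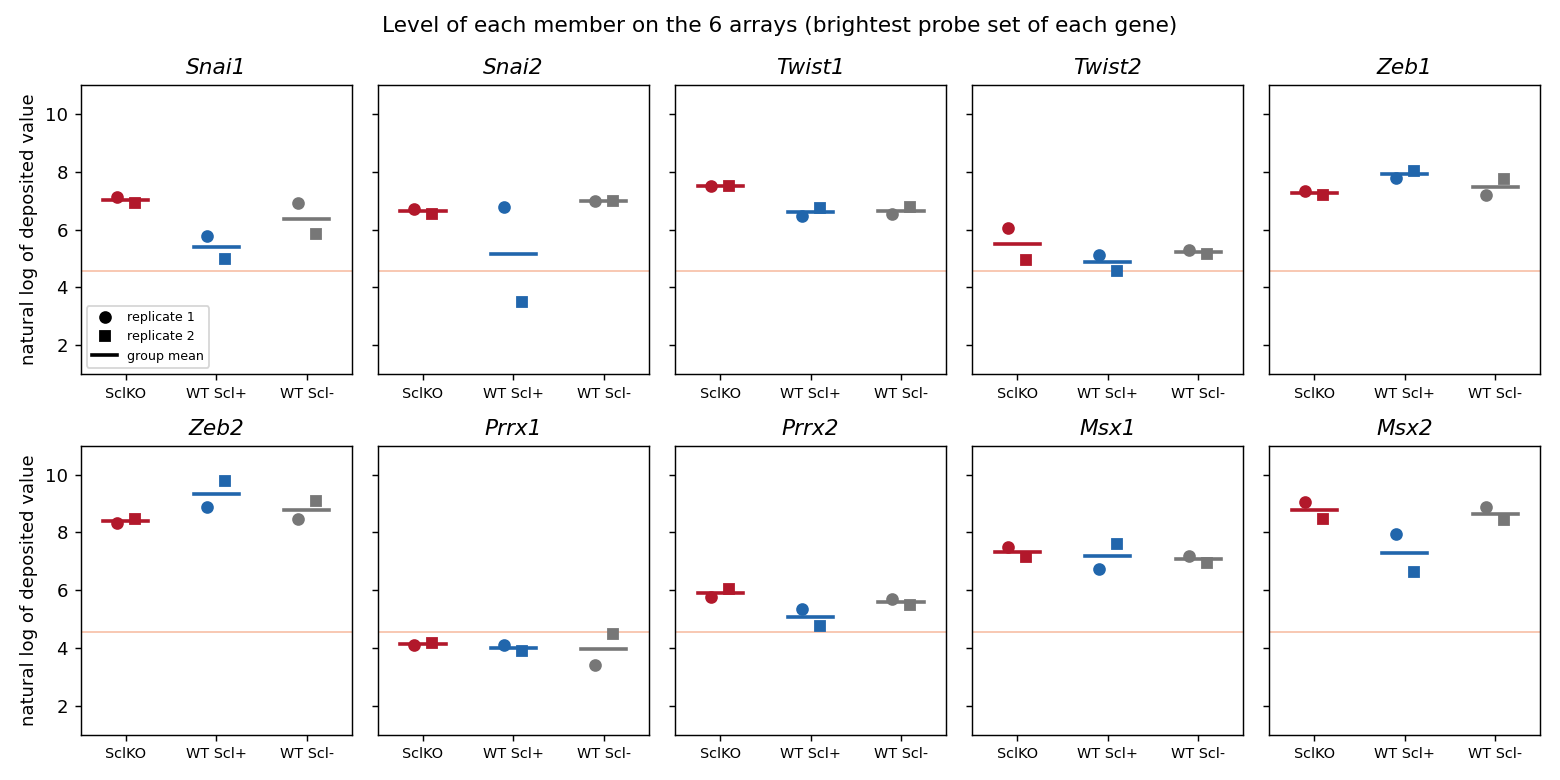
Natural log of the deposited value of each member (y axis) on the 2 arrays of SclKO, WT Scl+ and WT Scl-; circles are replicate 1, squares replicate 2, bars group means, and the pale line is the limit for dim values. Twist1 on both SclKO arrays (7.49 and 7.5) lies above all 4 WT arrays, Snai1 and Msx2 lie lowest on WT Scl+ replicate 2, and Prrx1 stays under the limit throughout.

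Most tested member probe sets had one of 2 opposite orders of the group means. Snai1, Twist1, Twist2, Prrx2, Msx2 and 1 of the 2 Msx1 probe sets had their highest group mean in SclKO and their lowest in WT Scl+, while all 4 tested Zeb2 probe sets, the Zeb1 probe set with the highest mean and 1 Snai2 probe set had the reverse order. Thus 6 of 16 member probe sets ran SclKO over WT Scl- over WT Scl+, an order held by 25.8% of all tested probe sets, and 6 ran WT Scl+ over WT Scl- over SclKO, an order held by 16.8%. The other 4 probe sets had 4 further orders, among them those with the highest mean for Msx1 and Snai2. The 4 Zeb2 probe sets read 1 gene and are not independent, and the group means of the Snai2 probe set differed by at most 0.14 log units (SE 0.22). Twist1 differed by only -0.05 (SE 0.18) between WT Scl+ and WT Scl-, and Zeb2 1458941_at by -0.04 (SE 0.41) between SclKO and WT Scl-. The order of those groups is not firm for either. No member was called in any of the 3 comparisons at an adjusted p under 0.05 (limma), and the comparisons share arrays, so each is given with its own values.

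The upstream sequences of 4 members are shown. Snai1, Msx1 and Msx2 are the members with an E-box there. Zeb2 had the reverse order of group means to Snai1 and Msx2 on its tested probe sets, while the Msx1 probe sets were divided. The sequences are the 250 bases before the annotated start, 5′ to 3′ on the gene's strand, from RefSeq (GRCm38.p6). Capitals mark CANNTG, the E-box core that basic helix-loop-helix factors bind, and GATA, the core bound by GATA factors.
Snai1: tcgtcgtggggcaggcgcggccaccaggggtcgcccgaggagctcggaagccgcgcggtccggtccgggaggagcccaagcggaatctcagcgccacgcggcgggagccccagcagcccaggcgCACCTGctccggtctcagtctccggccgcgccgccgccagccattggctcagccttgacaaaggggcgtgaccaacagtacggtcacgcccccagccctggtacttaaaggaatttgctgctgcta
Msx1: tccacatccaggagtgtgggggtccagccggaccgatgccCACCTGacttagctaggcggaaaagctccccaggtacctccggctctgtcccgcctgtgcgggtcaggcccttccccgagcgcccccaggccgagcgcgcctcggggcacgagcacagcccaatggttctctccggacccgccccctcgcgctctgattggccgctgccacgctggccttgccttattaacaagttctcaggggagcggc
Msx2: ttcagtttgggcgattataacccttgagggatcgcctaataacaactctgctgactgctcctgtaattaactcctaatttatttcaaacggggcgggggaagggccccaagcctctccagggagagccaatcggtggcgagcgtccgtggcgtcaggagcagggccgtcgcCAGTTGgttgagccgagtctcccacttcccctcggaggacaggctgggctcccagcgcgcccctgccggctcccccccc
Zeb2: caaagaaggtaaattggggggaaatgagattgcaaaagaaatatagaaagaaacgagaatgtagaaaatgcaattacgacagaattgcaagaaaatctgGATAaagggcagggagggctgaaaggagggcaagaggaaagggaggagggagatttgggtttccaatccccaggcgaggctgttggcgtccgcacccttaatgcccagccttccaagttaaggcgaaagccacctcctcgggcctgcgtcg

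The Snai1 window is chr2:167537945-167538194 on the plus strand, and on the minus strand lie those of Msx1 (chr5:37824586-37824835), Msx2 (chr13:53472781-53473030) and Zeb2 (chr2:45117443-45117692, the outermost of 4 annotated starts). The E-box of Snai1, 126 to 121 bases before the start, and that of Msx1, 210 to 205 bases before it, both read CACCTG, the letters known for binding by Snail and Zeb zinc fingers. The Msx2 E-box, at 79 to 74 bases, reads CAGTTG. All 4 motifs were searched on both strands, and every CAGGTG or CAGCTG match is also a CANNTG match. RefSeq windows were found for 8 of the 10 members (11 windows, none for Snai2 and Zeb1). Of these 8 members, 3 held CANNTG, 2 held CAGGTG, 0 held CAGCTG and 4 held GATA in at least 1 window. Over all 32851 such windows the shares were 66.2%, 17.2%, 13% and 53.6%. These are shares of single windows and the counts are of genes, of which Zeb2 had 4 windows. The members with GATA were Prrx1, Prrx2, Twist2 and Zeb2, and the Twist1 window held none of the motifs. Prrx2, Twist2 and Twist1 had the same order of group means as Snai1, and Zeb2 had the reverse. A match is a string of letters and not a measured binding site.

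Among the Snail genes, Snai1 averaged highest in SclKO. SclKO gave 7.13 and 6.91, WT Scl+ gave 5.79 and 4.97, and WT Scl- gave 6.91 and 5.85. Both SclKO arrays lay above both WT Scl+ arrays, whereas the lower SclKO and the higher WT Scl- array shared the value of 6.91 to 2 decimals. SclKO exceeded WT Scl+ by 1.64 log units (SE 0.41, 3.12-fold or 5.17-fold; limma adjusted p = 0.223, unadjusted p = 0.00713). SclKO exceeded WT Scl- by 0.64 log units (SE 0.41, adjusted p = 0.947), of which 0.11 was left without WT Scl- replicate 2. WT Scl+ was lower than WT Scl- in the means by a difference of -1.0 log units (SE 0.41, adjusted p = 0.54), without overlap but with 0.06 log units between the nearest arrays. Without WT Scl- replicate 1 it was -0.47 log units, and -0.59 if WT Scl+ replicate 2 was left out, so Snai1 within the reporter line rested on single arrays.

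Snai2, also called Slug, had another order than Snai1, and its 2 probe sets differed from each other on 1 array. Probe set 1418673_at was at 5.18 and 4.91 in SclKO, 4.98 and 5.4 in WT Scl+, and 5.34 and 5.03 in WT Scl-, so that all groups overlapped and no difference exceeded 0.14 log units (SE 0.22). The other, 1447643_x_at, was at 6.72 and 6.54 in SclKO, 6.78 and 3.5 in WT Scl+, and 7.0 and 6.98 in WT Scl-. Its 1 low value, under the limit, was on WT Scl+ replicate 2, the array that stood apart. The suffix x marks a probe set with probes that can match other sequences. Without WT Scl+ replicate 2 this probe set differed by -0.15 log units between SclKO and WT Scl+ and by -0.21 between WT Scl+ and WT Scl-. With that array as the lone member of its group the same values were 3.13 (limma adjusted p = 0.0246) and -3.48 log units (adjusted p = 0.0418).

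Twist1 had the closest pair of SclKO values among the tested member probe sets, and both lay above all WT values. SclKO gave 7.49 and 7.5, WT Scl+ 6.47 and 6.74, and WT Scl- 6.53 and 6.77. Every SclKO value exceeded every WT value by at least 0.71 log units, and the 2 WT groups overlapped. SclKO exceeded WT Scl+ by 0.89 log units (SE 0.18, 1.85-fold or 2.43-fold; limma adjusted p = 0.173, unadjusted p = 0.00232). SclKO exceeded WT Scl- by 0.84 log units (SE 0.18, 1.79-fold or 2.32-fold; adjusted p = 0.82, unadjusted p = 0.00301), which ranked 97th by p among the 28362 probe sets. Within the reporter line it differed by -0.05 log units (SE 0.18, adjusted p = 0.954). Leaving out any 1 array kept the first difference between 0.76 and 1.02 log units and the second between 0.72 and 0.96. Twist2, known from skin and limb mesenchyme, was at 6.05 and 4.94 in SclKO, 5.13 and 4.58 in WT Scl+, and 5.28 and 5.16 in WT Scl-. Only SclKO replicate 1 was high, and without it the difference between SclKO and WT Scl+ was 0.08 log units, against 0.64 (SE 0.38, adjusted p = 0.527) with all arrays.

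Zeb2 ran the other way on 3 of its probe sets. Zeb2, also called Sip1, is a SMAD-interacting repressor that is also active in blood progenitors of the mouse. Its probe set with the highest mean, 1422748_at, was at 8.31 and 8.46 in SclKO, 8.88 and 9.77 in WT Scl+, and 8.47 and 9.09 in WT Scl-. Probe set 1434298_at was at 7.44 and 6.59 in SclKO, 8.37 and 8.34 in WT Scl+, and 7.47 and 7.91 in WT Scl-. Probe set 1456389_at was at 5.7 and 5.61 in SclKO, 6.81 and 6.98 in WT Scl+, and 5.79 and 6.2 in WT Scl-. On all 3 the SclKO arrays lay below all 4 WT arrays, and on the last 2 the WT Scl+ arrays lay above all others. The same 3 were the only member probe sets with SclKO below every WT array. Above every WT array lay those of Snai1, Twist1 and Prrx2, Snai1 by a gap that rounds to 0.0 log units and Prrx2 by 0.06. Over all tested probe sets 8.04% had SclKO below every WT array and 11.7% above.

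On these 3 Zeb2 probe sets, in the order above, SclKO differed from WT Scl+ by -0.94 (SE 0.34; adjusted p = 0.344 by limma), -1.34 (SE 0.31, adjusted p = 0.202) and -1.24 log units (SE 0.19, adjusted p = 0.136). The last is 2.36-fold or 3.45-fold lower in SclKO and ranked 127th by p. Against WT Scl- the SclKO differences were smaller, at -0.40, -0.68 and -0.34 log units, with adjusted p from 0.898 to 0.97. The nearest SclKO and WT Scl- arrays were 0.01, 0.04 and 0.09 log units apart. These differences were -0.09 and -0.14 on 1422748_at and 1456389_at without WT Scl- replicate 2, and -0.26 on 1434298_at without SclKO replicate 2. Within the reporter line the WT Scl+ excess over WT Scl- came to 0.54 (SE 0.34), 0.66 (SE 0.31) and 0.90 (SE 0.19), with adjusted p of 0.686, 0.587 and 0.439. The last, 1456389_at, was also the largest of these relative to its SE and remained between 0.70 and 1.10 log units when any 1 array was left out. For 1422748_at, 0.10 of the 0.54 log units was left without WT Scl+ replicate 2, and its difference between SclKO and WT Scl+ was then -0.49. The remaining tested probe set, 1458941_at, had values of 3.63 to 4.59 and overlapped in every comparison, and 1454200_at was under the limit on every array.

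**Figure D2:**
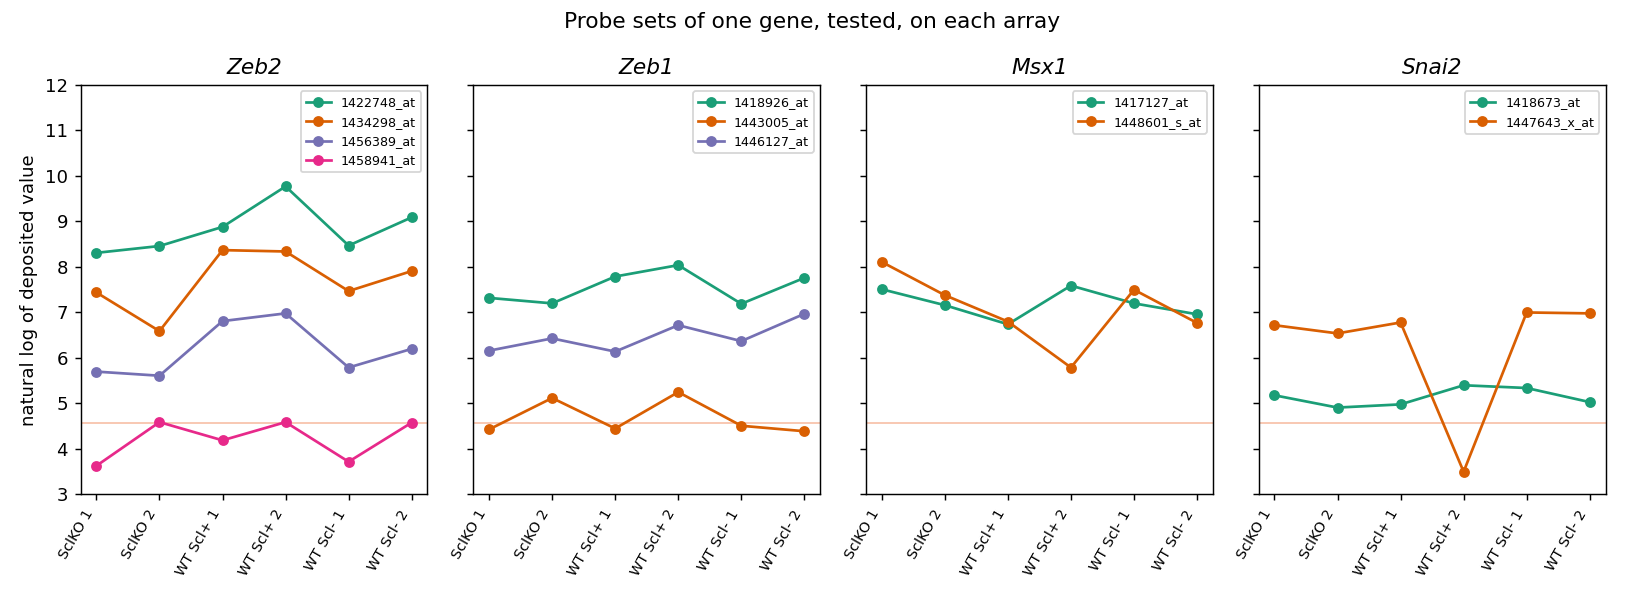
Natural log of the deposited value (y axis) of every tested probe set of Zeb2, Zeb1, Msx1 and Snai2 on each of the 6 arrays (x axis), with the limit for dim values as a pale line; lines join the arrays only to guide the eye. The upper 3 Zeb2 probe sets are lowest on the SclKO arrays, while the Msx1 and the Snai2 pairs each part on WT Scl+ replicate 2.

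Zeb1, the related repressor of Cdh1, had the order of group means of Zeb2 on 1 of its probe sets, but with overlap between SclKO and WT Scl-. Probe set 1418926_at was at 7.32 and 7.2 in SclKO, 7.79 and 8.04 in WT Scl+, and 7.19 and 7.76 in WT Scl-. SclKO lay below WT Scl+ without overlap (-0.65 log units, SE 0.23, adjusted p = 0.336 by limma). From WT Scl- it differed by -0.21 log units (SE 0.23), and by -0.50 to 0.08 when any 1 array was left out. WT Scl+ lay above WT Scl- by 0.44 (SE 0.23, adjusted p = 0.635), of which 0.15 was left without WT Scl- replicate 1. Probe set 1446127_at, above the limit on every array, overlapped in all comparisons, with differences of -0.14 between SclKO and WT Scl+ and -0.24 between WT Scl+ and WT Scl-. The SE of the second was 0.29. The third tested probe set, 1443005_at, was above the limit on 2 arrays and differed by 0.40 (SE 0.34) within the reporter line.

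Msx2 and Prrx2 had their lowest values in WT Scl+, while the Msx1 probe sets were divided and Prrx1 was dim throughout. Msx2, a target of BMP signalling in limb and heart mesenchyme, was at 9.06 and 8.45 in SclKO, 7.94 and 6.64 in WT Scl+, and 8.88 and 8.42 in WT Scl-. Both WT Scl+ arrays lay below all others, and SclKO and WT Scl- overlapped. WT Scl+ differed from WT Scl- by -1.36 log units (SE 0.45, 2.57-fold or 3.90-fold; limma adjusted p = 0.48, unadjusted p = 0.0232), which became -0.71 without WT Scl+ replicate 2. SclKO exceeded WT Scl+ by 1.47 log units (SE 0.45, adjusted p = 0.287), 0.82 without WT Scl+ replicate 2 and 2.12 (adjusted p = 0.0436) without WT Scl+ replicate 1. Between SclKO and WT Scl- the difference was 0.11 (SE 0.45, adjusted p = 0.996). The second Msx2 probe set stayed under the limit on every array.

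Msx1, its close relative, gave conflicting values. Probe set 1448601_s_at, whose probes can match several transcripts, was at 8.11 and 7.38 in SclKO, 6.8 and 5.79 in WT Scl+, and 7.5 and 6.77 in WT Scl-. SclKO exceeded WT Scl+ on it by 1.45 log units without overlap (SE 0.44; adjusted p = 0.28 by limma), whereas WT Scl+ differed from WT Scl- by -0.84 (SE 0.44, adjusted p = 0.628) with overlap. Without WT Scl+ replicate 2 they were 0.95 and -0.34, and the second was -0.48 without WT Scl- replicate 1. Probe set 1417127_at was at 7.51 and 7.16 in SclKO, 6.74 and 7.59 in WT Scl+, and 7.2 and 6.96 in WT Scl-, and all groups overlapped. The probe sets parted on WT Scl+ replicate 2, which was the lowest array on one and the highest on the other. Prrx2 was at 5.76 and 6.05 in SclKO, 5.36 and 4.77 in WT Scl+, and 5.69 and 5.5 in WT Scl-. No groups of Prrx2 overlapped, but SclKO exceeded WT Scl- by only 0.31 log units (SE 0.24), with 0.06 between the nearest arrays. SclKO exceeded WT Scl+ by 0.84 log units (SE 0.24, adjusted p = 0.27 by limma), and WT Scl+ differed from WT Scl- by -0.53 (SE 0.24, adjusted p = 0.583). Without WT Scl+ replicate 2 these were 0.54 and -0.24.

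**Figure D3:**
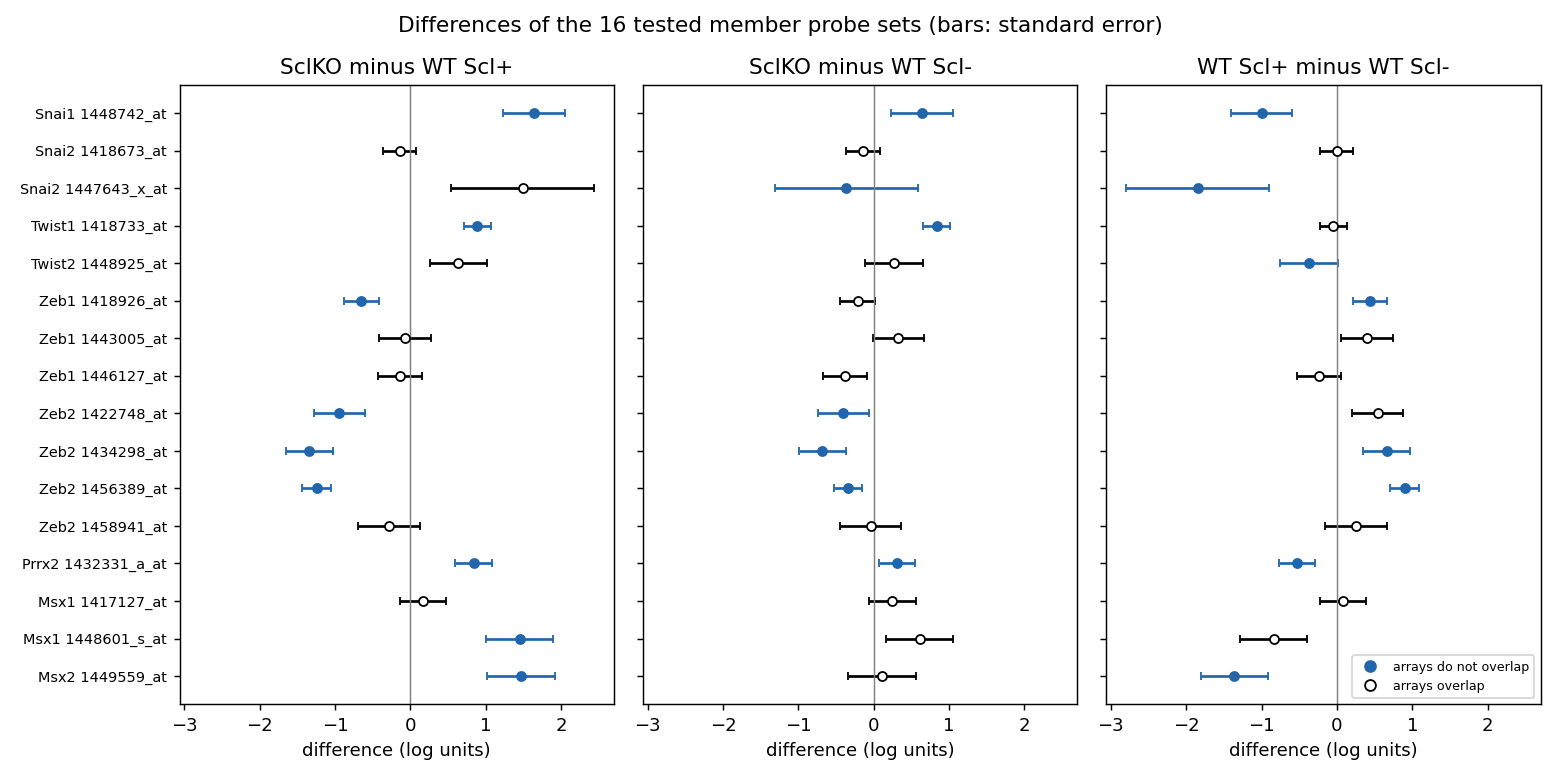
Difference in log units (x axis) with its standard error for each of the 16 tested member probe sets in the 3 comparisons, filled blue where the arrays of the groups do not overlap. Snai1, Twist1, Prrx2, Msx2 and 1 Msx1 probe set lie to the right in SclKO minus WT Scl+ and 3 Zeb2 probe sets to the left, while most SclKO minus WT Scl- differences lie nearer to 0.

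By counts, SclKO against WT Scl+ held most of the differences. At an unadjusted p under 0.05 limma gave 5 member probe sets higher in SclKO and 4 lower, of 16 tested, where 7.35% of all tested probe sets were higher and 5.68% lower. The 5 were those of Snai1, Twist1, Prrx2, Msx2 and 1448601_s_at of Msx1, and the 4 were the 3 Zeb2 probe sets and 1 of Zeb1; the same 9 did not overlap, in a comparison where 24.4% of all tested did so as higher and 18.2% as lower. At an adjusted p under 0.05 the member count was 0, where 0.0106% of all were called. The median member difference was 0.05 log units, equal to the median of all probe sets, with 8 member probe sets above 0 and 8 below. At 1 probe set a gene it was 0.84. Regardless of sign, the median member difference was 0.86 log units, against 0.22 for all probe sets. The median SE was also larger for members, at 0.32 against 0.21. Regardless of sign, the medians were 0.33 against 0.16 in SclKO against WT Scl-, and 0.49 against 0.19 in WT Scl+ against WT Scl-. Between SclKO and WT Scl- the count at limma's unadjusted p under 0.05 was 1 higher (Twist1) and 0 lower, against 2.70% and 2.77% of all. There 3 member probe sets did not overlap as higher and 4 as lower, against 21.7% and 19.5% of all. Snai1 is counted among the 3 with a gap that rounds to 0.0 log units, and Prrx2 with a gap of 0.06. Adjusted calls were 0 for members and 0.0106% of all. The median was 0.03 log units for members and 0.01 for all.

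Between WT Scl+ and WT Scl- limma called 0 members and 0% of all probe sets at an adjusted p under 0.05. At an unadjusted p under 0.05, 1 member probe set was higher in WT Scl+ (Zeb2) and 1 lower (Msx2), against 4.44% and 4.94% of all. The arrays did not overlap for 3 member probe sets as higher (2 of Zeb2 and 1 of Zeb1) and 5 as lower (Snai1, 1 of Snai2, Twist2, Prrx2 and Msx2), where 16.6% and 21.2% of all did so. The nearest arrays were only 0.03 log units apart for Zeb1 and for Twist2, and 0.06 for Snai1. The median difference was -0.02 log units for members and -0.04 for all.

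Of 8 lists of markers for other cell types, which were described and not tested, endothelial, blood and streak markers had the widest spread between group means. The mean level of 10 endothelial markers was 4.95 and 5.61 in SclKO, 6.45 and 6.93 in WT Scl+, and 4.57 and 5.96 in WT Scl-, and Emcn and Robo4 were under the limit throughout. For the 9 blood markers on the array it was 4.62 and 4.79 in SclKO, 6.39 and 6.03 in WT Scl+, and 4.83 and 5.36 in WT Scl-, with Hbb-y and Ptprc under the limit throughout. For 9 genes of the primitive streak and nascent mesoderm it was 8.75 and 8.68 in SclKO, 7.41 and 6.53 in WT Scl+, and 8.54 and 8.17 in WT Scl-. Endothelial and blood markers thus were highest where Zeb2 was, and streak genes highest where Snai1 and Msx2 were; the part of cell mixture in the member differences was not tested. In sorted bulk cells, fewer cells of a type and less RNA per cell cannot be told apart. Neural crest, a tissue known to express Twist1, Snai2 and Msx genes, had 9 markers on the array, with mean levels of 4.84 and 4.64 in SclKO, 5.0 and 4.66 in WT Scl+, and 4.93 and 4.87 in WT Scl-, with Foxd3, Tfap2b, Pax3 and Pax7 under the limit on every array. The mean level over the 6 arrays ranged from 5.25 to 5.73 for cardiac muscle markers, 4.77 to 5.03 for neural ectoderm, 4.69 to 5.21 for endoderm and 6.40 to 7.55 for pluripotent cells, the last being lowest on WT Scl+ replicate 2.

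Of the classical read-outs of EMT, epithelial genes without overlap lay mostly higher in SclKO and in WT Scl+ than in WT Scl-. Mesenchymal genes without overlap went in both directions in each comparison. Of 24 tested epithelial genes that Snail, Zeb or related factors are known to repress, limma called 0 in any comparison at an adjusted p under 0.05. Cdh1, the cadherin of epithelial junctions, was at 8.4 and 8.97 in SclKO, 9.29 and 7.71 in WT Scl+, and 7.55 and 6.87 in WT Scl-. SclKO exceeded WT Scl- by 1.47 log units (SE 0.54, adjusted p = 0.894) and WT Scl+ exceeded WT Scl- by 1.29 (SE 0.54, adjusted p = 0.541; 0.50 without WT Scl+ replicate 1). The tight junction genes Cldn6 and Cldn7 exceeded WT Scl- in SclKO by 1.65 (SE 0.68) and 1.10 log units (SE 0.56). In that comparison 12 of the 24 genes lay higher in SclKO without overlap and 0 lower, against 21.7% and 19.5% of all probe sets. At limma's unadjusted p under 0.05, 4 were higher and 0 lower (2.7% and 2.77% of all). Against WT Scl+, SclKO had 5 higher and 2 lower without overlap, against 24.4% and 18.2% of all. Krt19, a keratin, differed by -1.08 (SE 0.32) and Pard6b, a polarity gene, by 1.11 (SE 0.51, and 0.40 without WT Scl+ replicate 2). Between WT Scl+ and WT Scl- 8 were higher and 1, Pard6b (-1.36, SE 0.51), was lower without overlap (16.6% and 21.2% of all). At limma's unadjusted p under 0.05 it was 0 higher and 2 lower in SclKO against WT Scl+ (7.35% and 5.68% of all). In WT Scl+ against WT Scl- it was 0 higher and 1 lower (4.44% and 4.94% of all). The list medians were 0.18 in SclKO against WT Scl+, 0.22 in SclKO against WT Scl- and 0.20 in WT Scl+ against WT Scl-.

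Of 19 tested mesenchymal genes, 0 were called in any comparison. Cdh2, the cadherin gained in EMT, was at 10.94 and 10.93 in SclKO, 9.79 and 9.24 in WT Scl+, and 10.89 and 10.56 in WT Scl-. The SclKO excess over WT Scl+ was 1.43 (SE 0.23; adjusted p = 0.139 by limma). WT Scl+ differed from WT Scl- by -1.21 (SE 0.23, adjusted p = 0.439). Cdh11, a cadherin of mesenchyme, was at 10.28 and 9.83 in SclKO, 8.44 and 6.29 in WT Scl+, and 9.96 and 9.17 in WT Scl-. Cdh2 and Cdh11 therefore were lowest in WT Scl+, as Snai1 and Msx2 were, whereas Nid1, a basement membrane gene, was lower in SclKO than in WT Scl+ (-0.93, SE 0.42; -0.42 without WT Scl+ replicate 2). Against WT Scl+, 8 of the 19 lay higher in SclKO without overlap and 6 lower (24.4% and 18.2% of all probe sets), and the median was 0.04. At limma's unadjusted p under 0.05 there were 5 higher and 1 lower (7.35% and 5.68% of all). Set against WT Scl-, the counts without overlap were 7 and 3 (21.7% and 19.5% of all), with Mmp14, a membrane protease, at 0.69 (SE 0.19), and Sparc and the collagen gene Col1a1 at -0.57 (SE 0.19) and -1.37 (SE 0.68; -0.53 without SclKO replicate 2 and -0.87 without WT Scl- replicate 1). In WT Scl+ against WT Scl- they were 2 and 6 (16.6% and 21.2% of all), Col1a1 being at -1.38 (SE 0.68; -0.72 without WT Scl+ replicate 2 and -0.89 without WT Scl- replicate 1), and the medians were 0.08 and 0.04. An unadjusted p under 0.05 by limma was reached by 1 higher and 1 lower in SclKO against WT Scl- (2.7% and 2.77% of all). In WT Scl+ against WT Scl- it was reached by 0 higher and 3 lower (4.44% and 4.94% of all). S100a4, Col3a1, Fap, Postn and Lum, genes of later fibroblasts and mesenchyme, were under the limit on every array.

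**Figure D4:**
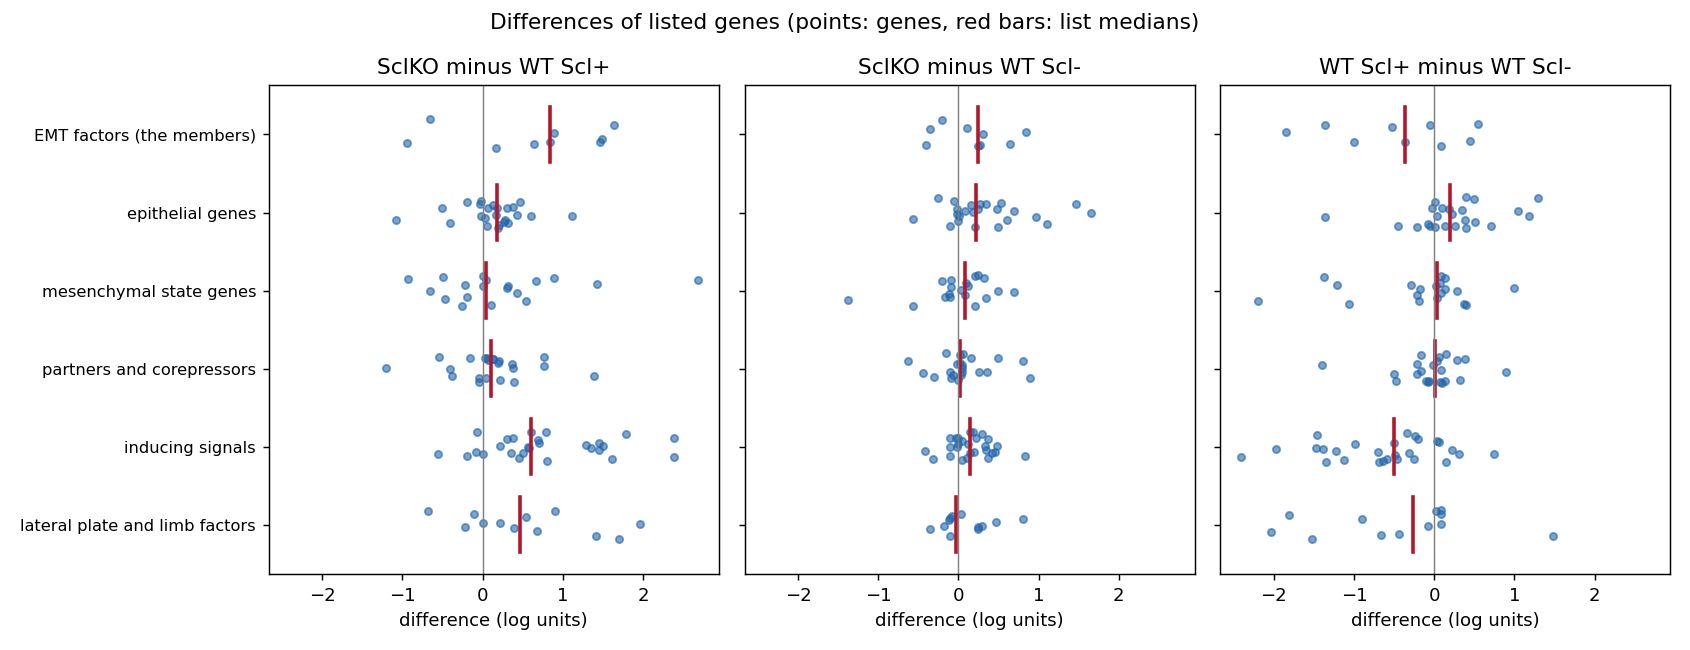
Differences in log units (x axis) of the tested genes of 6 lists (points) with the list medians (red bars) in the 3 comparisons. The inducing signals have medians of 0.60, 0.14 and -0.50 from left to right. The epithelial list has medians of 0.18, 0.22 and 0.20 and the mesenchymal list 0.04, 0.08 and 0.04, with single genes far from these.

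Signals known to induce the factors, such as Wnt and BMP ligands, form the next list, with receptors and transcription factors that act with them. The list shares Eomes, Mesp1, Fgf8 and Wnt3 with the streak markers above. Of its BMP ligands, Bmp7 lay higher in SclKO than in WT Scl+ without overlap (1.35), while Bmp2, Bmp4 and Bmp5 overlapped. Of 27 tested, 20 lay higher in SclKO than in WT Scl+ without overlap and 2 lower, against 24.4% and 18.2% of all probe sets. The median was 0.60 log units. At limma's unadjusted p under 0.05, 14 were higher and 0 lower (7.35% and 5.68% of all), and 0 were called at an adjusted p under 0.05. Wnt5a differed by 2.39 log units (SE 0.45), Eomes, a T-box factor that acts in mesoderm EMT, by 2.39 (SE 0.46) and Mesp2, a mesoderm factor, by 1.79 (SE 0.34). In WT Scl+ against WT Scl-, 2 were higher and 17 lower without overlap (16.6% and 21.2% of all), with a median of -0.50. At limma's unadjusted p under 0.05 these counts were 0 and 13 (4.44% and 4.94% of all). Mesp1, which is known to activate EMT genes in mouse cardiac mesoderm, was at 8.16 and 8.33 in WT Scl+, and at 10.01 and 9.43 in WT Scl- (-1.47, SE 0.23, adjusted p = 0.439). Set against WT Scl-, SclKO had 6 higher and 1 lower without overlap, against 21.7% and 19.5% of all. At limma's unadjusted p under 0.05 it had 1 and 0 (2.7% and 2.77% of all). The median was 0.14, with Nodal at 0.83 (SE 0.33) and Bmp2 at -0.42 (SE 0.20, and -0.27 without SclKO replicate 1).

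Among 22 tested partners and corepressors, the Id genes encode inhibitors that sequester the E protein partners of Twist and Scl, and none was called. Id1 was at 8.51 and 8.84 in SclKO, 7.76 and 8.06 in WT Scl+, and 7.84 and 7.9 in WT Scl-, so that, as for Twist1, both SclKO arrays lay above all WT arrays (0.77 against WT Scl+ and 0.81 against WT Scl-, SE 0.19 each; limma adjusted p = 0.223 and 0.837). Id2 exceeded WT Scl+ in SclKO by 1.39 log units (SE 0.51; 0.53 without WT Scl+ replicate 2) and WT Scl- by 0.89 (SE 0.51). Id4 was lower in SclKO than in WT Scl+ without overlap, at 8.23 and 8.76 in SclKO, 9.74 and 9.65 in WT Scl+, and 8.41 and 9.19 in WT Scl-. Its SclKO and WT Scl- arrays overlapped. Tcf4, an E protein, exceeded WT Scl- in SclKO by 0.49 log units (SE 0.17), and Hand1, a partner of E proteins in lateral mesoderm, differed by -1.40 (SE 0.58) between WT Scl+ and WT Scl-, as Fbxl14, part of a ligase known to degrade Snail proteins, did by -0.48 (SE 0.22). Without WT Scl+ replicate 2 these were -0.79 and -0.26, and without WT Scl- replicate 1 they were -0.85 and -0.30. The list held 0 calls, 7 genes higher and 3 lower without overlap in SclKO against WT Scl+ (median 0.10), 7 and 0 against WT Scl- (median 0.03), and 6 and 5 in WT Scl+ against WT Scl- (median 0.01). Over all probe sets the shares without overlap were 24.4% and 18.2%, 21.7% and 19.5%, and 16.6% and 21.2%. Those higher and lower at limma's unadjusted p under 0.05 were 2 and 1, 2 and 0, and 1 and 0 in the same order. For all probe sets these shares were 7.35% and 5.68%, 2.7% and 2.77%, and 4.44% and 4.94%.

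Of 12 tested lateral plate and limb factors, 6 lay higher and 2 lower without overlap in SclKO against WT Scl+ (median 0.46 log units), and 1 higher and 6 lower in WT Scl+ against WT Scl- (median -0.26), with 0 limma calls. Over all probe sets the shares were 24.4% and 18.2% in the first comparison and 16.6% and 21.2% in the second. With the limit at the 60th percentile, 7 genes of this list were tested and the medians were 0.90 and -0.90. Foxf1, a forkhead factor of splanchnic mesoderm, was at 9.18 and 7.97 in SclKO, 7.33 and 5.91 in WT Scl+, and 9.33 and 7.99 in WT Scl-. Isl1 differed by 1.70 (SE 0.35) between SclKO and WT Scl+ and Tbx2 by 1.42 (SE 0.41), with both WT Scl+ arrays of Foxf1, Isl1 and Tbx2 below those of the other groups. Between SclKO and WT Scl- 4 were higher and 1 lower (21.7% and 19.5% of all), with Foxc2 (0.80, SE 0.30), Osr1 (0.47, SE 0.23) and Irx3 (0.29, SE 0.35). The median was -0.02. The WT Scl- values of Foxc2 (3.79 and 4.19) and Osr1 (4.26 and 4.49) were under the limit for dim values. With values under the limit raised to it, the differences of Foxc2 and Osr1 were 0.20 and 0.25. At limma's unadjusted p under 0.05, 5 were higher and 0 lower in SclKO against WT Scl+ (7.35% and 5.68% of all). The counts were 1 and 0 in SclKO against WT Scl- (2.7% and 2.77% of all). In WT Scl+ against WT Scl- they were 1 and 4 (4.44% and 4.94% of all).

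The genes with the most similar profile over the 6 arrays were found by the distance between values centred on each gene's mean, for members that spanned at least 1 log unit. For Snai1 the nearest of 12913 genes was Pdgfra, the PDGF receptor of paraxial and cardiac mesoderm, at a distance of 0.26 log units against a median of 1.91 over all genes. Pdgfra was at 8.25 and 7.99 in SclKO, 6.85 and 6.18 in WT Scl+, and 8.05 and 7.23 in WT Scl-. Sulf1, a heparan sulfate sulfatase, and Sntb1 followed at 0.44 and 0.46. For Msx2 the nearest were Bmp7, a BMP ligand (0.23), Wnt5b, a Wnt ligand (0.34), and Zcchc12 (0.36), against a median of 1.93. Bmp7 was at 6.93 and 6.45 in SclKO, 5.9 and 4.78 in WT Scl+, and 6.72 and 6.39 in WT Scl-.

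For Twist1 the nearest were Tafa2 (0.26), H13 (0.28) and Id1 (0.29), against a median of 1.12, and Tafa2 was under the limit on all WT arrays. For Zeb2 they were Whamm (0.22), Rapgef5 (0.23) and Mfge8 (0.25), against a median of 1.35, and Rapgef5 was at 6.9 and 7.0 in SclKO, 7.54 and 8.51 in WT Scl+, and 6.97 and 7.83 in WT Scl-. Prrx2 was nearest to Klhl20 (0.22), Syt7 (0.22) and Arhgef5 (0.23), and Twist2 to Farp2 (0.25), Zfp449 (0.28) and Amacr (0.28). The Snai2 probe set 1447643_x_at was nearest to Dner (0.47), Dlx2 (0.73) and Cyp2s1 (0.86), each with its lowest value on WT Scl+ replicate 2, at 2.94, 2.46 and 3.85. These profiles share the 6 arrays and with them every array-wide shift, so a small distance is a description.

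**Figure D5:**
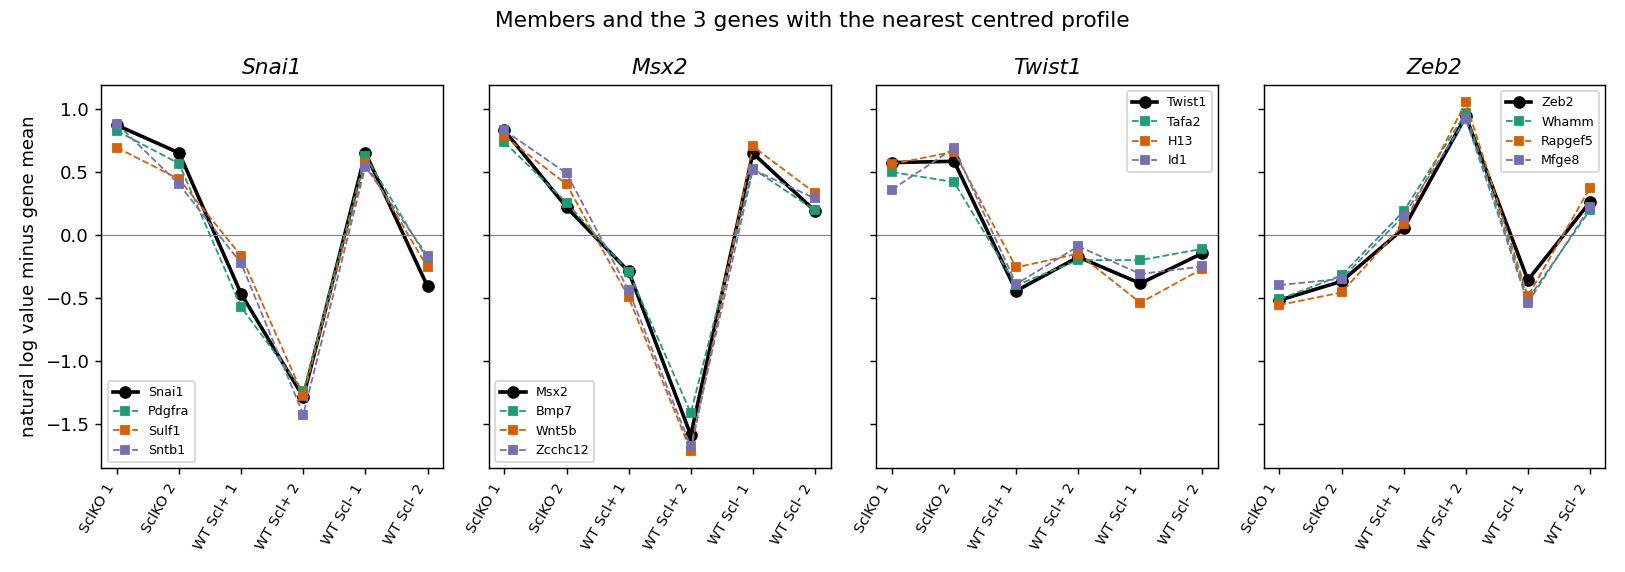
Natural log value minus the gene's mean (y axis) on each array (x axis) for Snai1, Msx2, Twist1 and Zeb2 (black) and the 3 genes with the nearest profile (coloured); lines join the arrays only to guide the eye. Snai1 with Pdgfra and Msx2 with Bmp7 dip on WT Scl+ replicate 2, on which Zeb2 peaks, while Twist1 and Id1 are raised on both SclKO arrays.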

How the data were processed

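RNA of sorted Flk1+ cells was read on 6 Affymetrix mouse arrays; groups and replicate numbers came from the sample titles. ES cells were kept for 2 days in medium that precedes embryoid bodies and plated at 100000 cells per well, per the labels' protocols. Per the submitters' processing notes the tools were RMA, affy and limma, without versions. The authors' deposited signal values are not logs, and whether they are linear intensities or powers of a log value, and to which base, is not stated: 1040 to 1153 values per array exceed 65535, a 16-bit scanner's ceiling, and their natural logs span 1.18 to 14.85. The number of unused value columns was 0. Arrays have no read depth, and their number limits the precision.

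Of 45101 probe sets, 64 controls were left out; 34958 had 1 gene symbol in a table of the platform's annotation, 932 several and 9211 none, and symbols were updated through Entrez identifiers with a RefSeq table (GRCm38.p6). Natural logs were fitted with limma 3.58.1 in R 4.3.3, with 1 mean per group over all 6 arrays (residual degrees of freedom 3, prior 3.13), two-sided, with eBayes. Tested were probe sets above the 40th percentile of an array on 2 or more of the 6. The fit was tested on simulated data. Of each list, the 3 genes with the largest difference per comparison without overlap of the arrays were named, each at the probe set with the highest mean. Members and lists were chosen with earlier results of these data known, and no list was tested. Of the listed genes, 6 were not analysed here. As alternatives, the fit was repeated with a replicate block, other filters, scalings, a pseudocount, 1 probe set a gene, other variance settings and leaving out each array.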

Additional observations from a re-analysis of the deposited data

How the results depend on the processing

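Under the 9 alternatives that kept all arrays or only the 4 arrays compared, no member was called in any comparison, and no difference of a tested member probe set changed sign. Replicate numbers were not shown to pair arrays (same-numbered arrays deviated together at r = 0.205 to 0.238 with 2 numbers), and with the replicate block 6 probe sets were called in SclKO against WT Scl+, where 3 were called without it. In that comparison 1 was called at 1 probe set a gene, 27 with only the 4 arrays compared and 32 with an intensity trend and robust prior. In SclKO against WT Scl- the counts were 6 with the 60th percentile filter, 1 at 1 probe set a gene, 11 with trend and robust prior and 5 with a pseudocount of 32, against 3. At 1 probe set a gene the member medians were -0.37 in WT Scl+ against WT Scl-, 0.84 in SclKO against WT Scl+ and 0.25 in SclKO against WT Scl-, the last being -0.21 with the 60th percentile filter, which tests fewer member probe sets. Which probe sets are counted sets these medians. The causes of the other shifts were not tested.

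Leaving out each array in turn, the calls ranged from 0 to 46 in WT Scl+ against WT Scl-, 0 to 1179 in SclKO against WT Scl+ and 0 to 3 in SclKO against WT Scl-. The highest 2 came without WT Scl+ replicate 1, which leaves the array that stood apart alone in its group, with the spread of the other groups assumed for it. Member calls ranged from 0 to 1, 0 to 3 and 0 to 0, and member medians from -0.19 to 0.15, -0.30 to 0.24 and -0.22 to 0.18. The 3 calls were Snai2 1447643_x_at, Zeb2 1456389_at and Msx2. The sign was not stable for the following probe sets. In WT Scl+ against WT Scl- these were Snai2 1418673_at (-0.20 to 0.21), Twist1 (-0.18 to 0.09), Zeb1 1446127_at (-0.54 to 0.07), Zeb2 1458941_at (-0.18 to 0.68) and Msx1 1417127_at (-0.34 to 0.51). In SclKO against WT Scl+ they were Snai2 1418673_at (-0.35 to 0.07) and 1447643_x_at (-0.15 to 3.13), Zeb1 1443005_at (-0.47 to 0.32) and 1446127_at (-0.43 to 0.15), Zeb2 1458941_at (-0.77 to 0.20) and Msx1 1417127_at (-0.26 to 0.60). In SclKO against WT Scl- they were Snai2 1418673_at (-0.30 to 0.02), Twist2 (-0.29 to 0.83), Zeb1 1418926_at (-0.50 to 0.08) and 1443005_at (-0.02 to 0.67), Zeb2 1458941_at (-0.52 to 0.44) and Msx2 (-0.19 to 0.41). In SclKO against WT Scl+, member differences of several SEs, such as those of Snai1, Twist1 and Zeb2 1456389_at, did not pass the adjusted threshold. The reason was not tested.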
